A study of Rattus norvegicus with 6 samples.

Results

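The fibrillar collagen genes encode the chains of the collagens that assemble into banded fibrils, and 9 of them were followed here in rat NPCs (nucleus pulposus cells, from the gel-like core of the intervertebral disc). The 9 genes were chosen by their symbols: Col1a1, Col1a2, Col2a1, Col3a1, Col5a1, Col5a2, Col5a3, Col11a1 and Col11a2. All 9 were found among the 20264 gene rows of the combined count table, which holds 43 collagen genes. RNA-seq had been done on 6 libraries of primary NPCs isolated from the caudal discs of male wild type Sprague-Dawley rats, whose age was not stated in the sources used here. In 3 libraries (TBHP) the cells had received tert-butyl hydroperoxide (TBHP), an oxidant used to bring on senescence, and in the other 3 (TBHP+FGF21) they had received TBHP together with recombinant FGF21. Every library thus came from TBHP-treated cells, and no untreated library was analysed here. In the TBHP+FGF21 group, the agent named in the treatment label is FGF21 only for replicate 1, since replicate 2 has FGF22 and replicate 3 has FGF23, whereas the titles, the treatment protocol and the design text place all 3 in the FGF21 group. The submitters describe the 3 libraries of a group as biological replicates, but the dose and duration for these libraries were not stated in the sources used here. The comparison asks whether transcript levels differ when FGF21 is added to TBHP.

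Fibrillar procollagens are made as chains that fold into a helix of intertwined strands in the endoplasmic reticulum, are trimmed outside the cell and are then cross-linked into fibrils. Type I collagen is usually a heterotrimer of chains encoded by Col1a1 and Col1a2 and forms the tensile fibrils of bone, tendon and the outer annulus fibrosus. Type II collagen, encoded by Col2a1, is the main fibril of cartilage and of the healthy nucleus pulposus. Type III collagen, encoded by Col3a1, accompanies type I in soft tissue. Types V and XI are minor collagens that sit inside type I and type II fibrils and limit fibril diameter, and chains of the types V and XI can combine with each other. Replacement of type II by type I collagen is a textbook feature of disc degeneration and of cultured NPCs.

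Libraries held between 18277732 and 22426190 counts, so that 3 counts, the limit that a count of 0 allows, correspond to 0.134 to 0.164 CPM (counts per 1e6 counts). This limit covers counting error only. All levels below are TMM-scaled CPM, and groups were compared by the quasi-likelihood test of edgeR with Benjamini-Hochberg adjustment over 11426 genes. Only 0.00875% of the genes, which is Sirt1 alone (its TBHP counts differ between the combined and the per-sample files), had an adjusted p under 0.05. Replicate 2 of the TBHP+FGF21 group was closer to the TBHP libraries than to its own group, with a mean Spearman rho of 0.996 with the TBHP libraries and of 0.990 with the other libraries of its own group. Replicate 3 of TBHP was also slightly closer to the other group (0.9938) than to its own (0.9931). Of the markers of notochordal nucleus pulposus cells, Tbxt, Noto and Shh had no count in any library, Krt18 had 0 to 3 counts and Krt8 had 53 to 91, while Acan, the core protein of aggrecan, had 47999 to 99894. Acan alone was abundant among these markers, and chondrocytes express it too.

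Col1a1 was the highest of the members and Col1a2 and Col2a1 were close to the limit of detection. The range among the 9 genes was wide, since 5 members (Col1a1, Col3a1, Col5a1, Col5a2 and Col11a1) had over 20000 counts in every library and 2 (Col1a2 and Col2a1) had under 20 in every library. The CPM of each of the former 5, not corrected for length, was above that of at least 99.4% of the genes tested. No member passed the adjusted threshold between TBHP+FGF21 and TBHP. Col11a1 was lower and Col5a3 was higher at an unadjusted p under 0.05, and the other 7 members had larger p, where 8.92% of all genes tested were under 0.05. The 2 members became 4 without replicate 2 of TBHP+FGF21, 1 without replicate 1 of TBHP and 0 when any other single library was left out. In bulk RNA, fewer cells of a type and less RNA per cell cannot be told apart.

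The type I pair was uneven in every library. Col1a1 (ENSRNOG00000003897) had 760201, 862314 and 816245 counts under TBHP (replicates 1 to 3, an order kept below) and 776930, 838060 and 639245 under TBHP+FGF21. Col1a1 took 3.81% to 4.16% of all counts in the TBHP group and 2.85% to 3.99% in the TBHP+FGF21 group, and 68.4% to 72.6% of the counts of the 9 members. Col1a2 (ENSRNOG00000011292), its partner in type I collagen, had 7, 17 and 10 counts in the TBHP group and 9, 14 and 15 in the TBHP+FGF21 group. In CPM, Col1a1 exceeded Col1a2 by 50724 to 108600 times in the TBHP group and by 42616 to 86326 times in the TBHP+FGF21 group. These ratios are not corrected for transcript length. Per kb of annotated gene span, introns included, the TBHP mean was 2349 CPM for Col1a1 and 0.0156 CPM for Col1a2.

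Col1a2 was low in each version of the deposited counts. Its 72 counts over all libraries in the unstranded column compare with 74 in the sum of the columns for the single strands, and by strand it had 3 to 11 counts per library. The identifiers of the per-sample files that were linked to no symbol numbered 19679. The highest count in any library among them was 39325. This compares with a lowest count of 639245 for Col1a1 and with 7 to 17 counts for Col1a2. Reads aligned to more than 1 place, which are counted to no gene, made up 6.27% to 7.02% of the reads, and reads shared by overlapping genes made up 1.72% to 2.09%. Reads outside genes made up 9.13% to 10.4%. At 2395324 to 2986591 per library, they outnumbered the counts of Col1a1. Reads aligned to more than 1 place, at 1665327 to 2024291 per library, did so too. The part of read assignment in the low count of Col1a2 was not tested.

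Promoter sequences, the 250 bases before the start used in the RefSeq promoter table (GRCr8), were at hand for 6 of the 9 members. This start was the outermost one of the gene span for Col1a2, Col5a2 and Col11a1, and lay inside the span by 54 bases for Col5a3, 405 bases for Col5a1 and 844 bases for Col11a2. Those of Col1a2, the gene with few counts beside its partner, and of Col11a1 and Col5a3, the members with an unadjusted p under 0.05, are shown 5′ to 3′ on the strand of the gene. Capitals mark CCAAT (the box bound by nuclear factor Y, which reads ATTGG on the other strand), TATAAA (the core promoter element that binds TBP, written TTTATA on the other strand) and GGGCGG (the element bound by Sp1, written CCGCCC on the other strand), each searched on both strands.
Col1a2 (chr4:33518307-33518556, plus strand): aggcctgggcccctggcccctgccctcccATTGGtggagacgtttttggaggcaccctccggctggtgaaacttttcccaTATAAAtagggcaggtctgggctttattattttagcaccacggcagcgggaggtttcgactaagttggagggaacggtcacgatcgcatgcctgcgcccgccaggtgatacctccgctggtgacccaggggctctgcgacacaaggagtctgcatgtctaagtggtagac
Col11a1 (chr2:204508886-204509135, plus strand): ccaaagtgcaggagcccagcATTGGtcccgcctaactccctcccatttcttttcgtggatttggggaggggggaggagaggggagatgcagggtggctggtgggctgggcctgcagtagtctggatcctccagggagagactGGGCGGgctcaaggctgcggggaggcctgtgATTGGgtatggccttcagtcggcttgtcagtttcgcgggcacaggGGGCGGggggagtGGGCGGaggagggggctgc
Col5a3 (chr8:27625949-27626198, minus strand): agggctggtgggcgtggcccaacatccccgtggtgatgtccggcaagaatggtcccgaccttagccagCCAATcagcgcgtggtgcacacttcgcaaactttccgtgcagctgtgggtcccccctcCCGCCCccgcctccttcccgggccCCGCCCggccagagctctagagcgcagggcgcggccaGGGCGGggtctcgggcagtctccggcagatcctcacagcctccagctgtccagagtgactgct
The Col1a2 promoter held 1 CCAAT on the other strand, 221 bases before the start, 1 TATAAA at 170 bases before it and 0 GGGCGG. The Col11a1 promoter held 2 CCAAT on the other strand and 3 GGGCGG, and the Col5a3 promoter held 1 CCAAT and 3 GGGCGG. Of 33469 RefSeq promoters of this length, 34.0% held CCAAT, 12.9% held TATAAA and 30.5% held GGGCGG. Of the members not printed, Col5a1 held 1 GGGCGG, Col11a2 held 3 (of which 2 overlap) and Col5a2 held none of the letters searched.

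**Figure D1:**
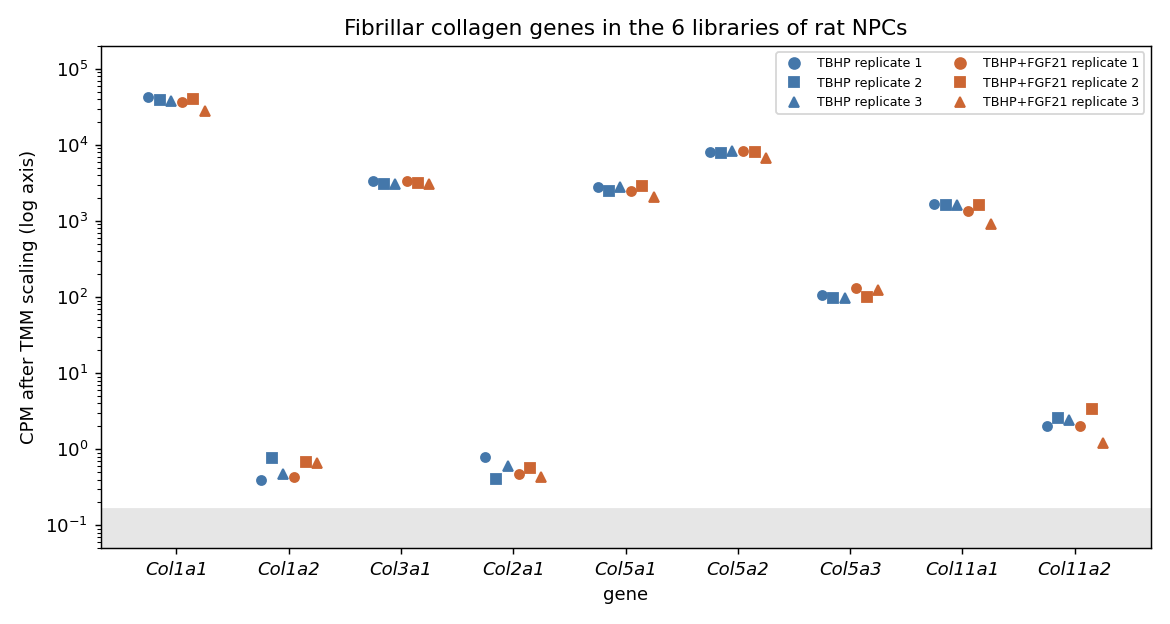
Levels of the 9 fibrillar collagen genes in each library, as CPM after TMM scaling on a log axis, with 1 point per library and the groups TBHP and TBHP+FGF21 in separate colours. The grey band lies below the limit that a count of 0 allows. Col1a1 sits between 27868 and 42463 CPM, while Col1a2 and Col2a1 lie below 1 CPM in all 6 libraries.

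Col1a1 was at 42463, 39098 and 38265 CPM under TBHP and at 36809, 40114 and 27868 CPM under TBHP+FGF21. Replicate 3 of the TBHP+FGF21 group was the lowest library and replicate 2 lay within the TBHP range, so the groups overlapped. The means were 39942 ± 2223 and 34931 ± 6335 CPM (SD, n = 3), and edgeR gave a log2 fold change of -0.19 with an SE of 0.14 and an adjusted p of 0.628. Col1a2 was at 0.544 ± 0.201 CPM under TBHP and 0.583 ± 0.136 CPM under TBHP+FGF21, a log2 fold change of 0.08 (SE 0.40). At 7 to 17 counts per library, a difference of the size of this error was not detectable.

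Col2a1 (ENSRNOG00000058560), the type II collagen gene, was counted 14, 9 and 13 times in the TBHP group and 10, 12 and 10 times in the TBHP+FGF21 group. All 6 libraries were thus above the limit of 3 counts but within a few counts of each other. Its levels were 0.600 ± 0.187 and 0.495 ± 0.0715 CPM (SD, n = 3), with a log2 fold change of -0.26 (SE 0.39) and an adjusted p of 0.823 by edgeR. The transcription factors that drive Col2a1 in cartilage are encoded by Sox9, Sox5 and Sox6. Sox9 was at 5.78 ± 0.766 CPM under TBHP and 8.47 ± 2.64 CPM under TBHP+FGF21 (log2 fold change 0.56, SE 0.22, unadjusted p 0.0241 and adjusted p 0.553 by edgeR). The Sox9 groups overlapped, since replicate 2 of TBHP+FGF21 lay inside the TBHP range. Sox5 was at 1.40 ± 0.270 and 2.93 ± 1.28 CPM, and its groups did not overlap (log2 fold change 1.08, SE 0.33, adjusted p 0.553 by edgeR). Sox6 was at 5.70 ± 0.671 and 5.75 ± 1.00 CPM. Acan, another cartilage matrix gene, was at 2709 ± 218 and 3565 ± 749 CPM with groups that overlapped (log2 fold change 0.40, adjusted p 0.553 by edgeR). Of other such genes, Hapln1 was at a log2 fold change of 0.11 and Comp at -0.11. Matn3 had 2 to 8 counts and was not tested, and it was lower without overlap, at 0.395 ± 0.0454 and 0.140 ± 0.0522 CPM.

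Col3a1 (ENSRNOG00000003357) differed least between the groups. It was at 3367, 3089 and 3098 CPM under TBHP and at 3327, 3175 and 3048 CPM under TBHP+FGF21. The groups covered nearly the same range, with means of 3185 ± 158 and 3183 ± 140 CPM (SD, n = 3) and a log2 fold change of -0.00081 (SE 0.10), whose sign changed with the scaling. Beside Col1a1, Col3a1 stood at a ratio of 0.0793, 0.0790 and 0.0810 in the TBHP group and of 0.0904, 0.0791 and 0.109 in the TBHP+FGF21 group. The ratio was higher in replicates 1 and 3 of the TBHP+FGF21 group, and replicate 2 lay within the TBHP range. Col3a1 and Col5a2 are neighbours on chromosome 9 in RefSeq, and the log2 fold change of Col5a2 was -0.07 (SE 0.11).

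Of the type V genes, Col5a2 and Col5a1 did not pass the test in either direction and Col5a3 was higher at the unadjusted level. Col5a2 (ENSRNOG00000003736) was at 8105, 7910 and 8211 CPM under TBHP and 8274, 8139 and 6735 CPM under TBHP+FGF21, with means of 8075 ± 153 and 7716 ± 852 CPM (SD, n = 3). In both Col5a2 and Col5a1, replicate 3 of the TBHP+FGF21 group was the lowest library. Col5a1 (ENSRNOG00000008749) was at 2775, 2512 and 2775 CPM under TBHP and 2467, 2912 and 2047 CPM under TBHP+FGF21, a log2 fold change of -0.12 (SE 0.13, adjusted p 0.747 by edgeR).

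Col5a3 (ENSRNOG00000020525), the gene for a less abundant type V chain, was at 107.7, 97.2 and 96.4 CPM under TBHP and at 131.6, 101.3 and 124.2 CPM under TBHP+FGF21. Replicates 1 and 3 of the TBHP+FGF21 group were above all TBHP libraries and replicate 2 was inside their range. The means were 100.4 ± 6.35 and 119.0 ± 15.8 CPM (SD, n = 3). This is a log2 fold change of 0.25 (SE 0.11). The unadjusted p was 0.0450 and the adjusted p was 0.553 by edgeR, and 4.63% of all genes tested were higher at an unadjusted p under 0.05. When replicate 2 of the TBHP+FGF21 group was left out, Col5a3 was at a log2 fold change of 0.36 (SE 0.10) and the adjusted p was 0.0355, in a fit in which 7.50% of 11559 genes had an adjusted p under 0.05. Without replicate 3, it was 0.22 with an unadjusted p of 0.0967 by edgeR.

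Col11a1 (ENSRNOG00000023148), which encodes a chain of type XI collagen, was the only one of the 9 genes whose groups did not overlap. It was at 1679, 1628 and 1645 CPM under TBHP and at 1333, 1610 and 905 CPM under TBHP+FGF21. The TBHP libraries lay close together, replicate 2 of the TBHP+FGF21 group was just below them, and replicate 3 was the lowest. The means were 1651 ± 26.4 and 1283 ± 355 CPM (SD, n = 3). By log2 fold change, TBHP+FGF21 was at -0.36 (SE 0.16) against TBHP, with an unadjusted p of 0.0472 and an adjusted p of 0.553 by edgeR. The exact two-sided permutation p was 0.1, the smallest that 3 libraries against 3 can give. Groups that did not overlap were found for 9.90% of all genes tested, of which those lower in TBHP+FGF21 made up 5.00% and those higher 4.90% of all genes. At an unadjusted p under 0.05, 4.29% of all genes were lower. When replicate 2 of the TBHP+FGF21 group was left out, Col11a1 was at a log2 fold change of -0.55 (SE 0.13). Its adjusted p was 0.0196 by edgeR in that fit, in which 7.50% of 11559 genes were under 0.05. Without replicate 3, Col11a1 was at -0.16 with an unadjusted p of 0.176 by edgeR. Col11a2 (ENSRNOG00000000463), which encodes another type XI chain, had 36, 56 and 51 counts in the TBHP group and 43, 70 and 28 in the TBHP+FGF21 group. Its highest and its lowest library were both in the TBHP+FGF21 group, and its log2 fold change was -0.08 (SE 0.32).

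**Figure D2:**
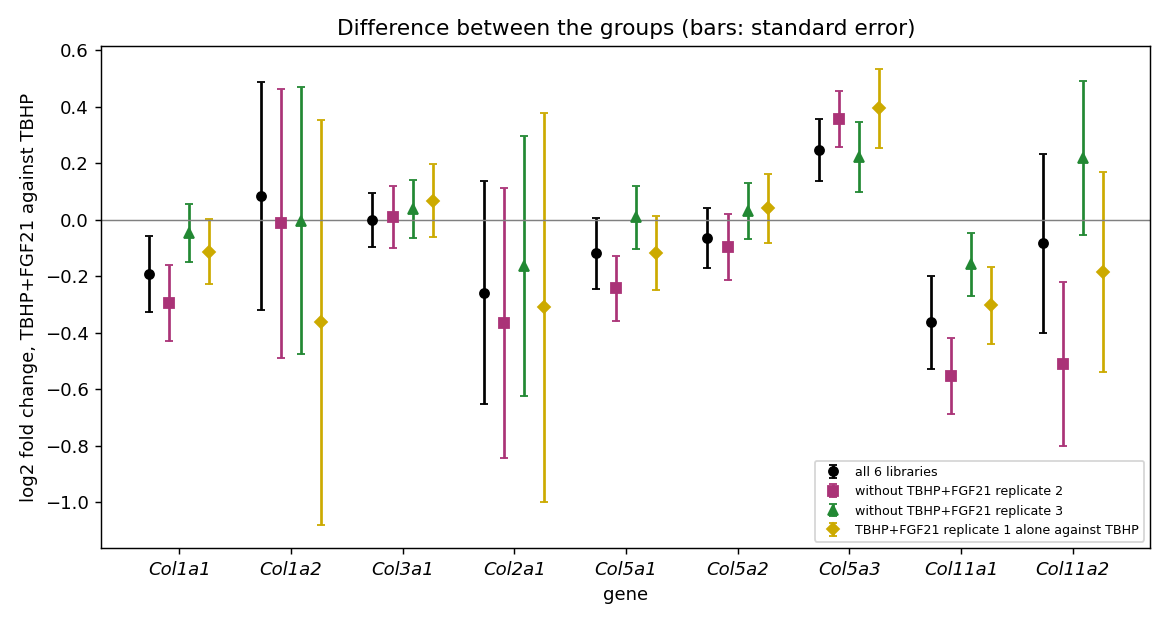
Log2 fold change of each member, TBHP+FGF21 against TBHP, by edgeR, with bars of 1 SE. Shown are fits with all libraries, without replicate 2 or replicate 3 of the TBHP+FGF21 group, and with replicate 1 alone of that group. Col11a1 moves from -0.36 with all libraries to -0.55 without replicate 2 and -0.16 without replicate 3, and Col5a3 from 0.25 to 0.36 and 0.22.

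The 9 members together summed to 58500, 54337 and 54094 CPM under TBHP and to 52346, 56055 and 40729 CPM under TBHP+FGF21. Replicate 3 of the TBHP+FGF21 group was the lowest library of all for 6 members. The sum was 55643 ± 2477 CPM under TBHP and 49710 ± 7996 CPM under TBHP+FGF21 (SD, n = 3), with 54200 CPM in the latter without replicate 3 and 46537 CPM without replicate 2, when both libraries left lay below every TBHP library. The difference was within the spread of the TBHP+FGF21 libraries. Of the members, 7 had a log2 fold change below 0 and 2 above it, with a median of -0.08, beside a median of -0.0052 and quartiles of -0.14 and 0.12 over all genes tested. Without replicate 2, 4 members (Col1a1, Col5a1 and Col11a1 lower, Col5a3 higher) had groups that did not overlap, and 39.8% of all genes tested were in that state. The same 4 members had an unadjusted p under 0.05 by edgeR in that fit, as did 23.6% of the genes.

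Ratios between members compare the chains within a library and do not depend on scaling. The ratio of Col11a1 to Col5a1, whose chains can share a fibril, was 0.605, 0.648 and 0.593 in the TBHP group and 0.540, 0.553 and 0.442 in the TBHP+FGF21 group. The groups did not overlap, and the mean of the TBHP+FGF21 group was 83.2% of that of the TBHP group. The ratio of Col11a1 to Col5a2 did not overlap either, at 0.207, 0.206 and 0.200 against 0.161, 0.198 and 0.134. The ratio of Col11a1 to another tested gene was lower without overlap for 19.8% of the 11425 other genes. The ratio of Col11a1 to Col1a1 overlapped, and its TBHP+FGF21 mean was 87.6% of the TBHP mean. The ratios of Col5a1, Col5a2, Col3a1 and Col2a1 to Col1a1, of Col1a1 to Col1a2 and of Col5a2 to Col5a1 overlapped too. Those of Col11a1 to Col5a2 and Col1a1, of Col3a1 to Col1a1, and of Col5a2 and Col5a3 to Col5a1 were added to the planned ratios. The ratio of Col5a3 to Col5a1 was 0.0388, 0.0387 and 0.0347 in the TBHP group and 0.0533, 0.0348 and 0.0607 in the TBHP+FGF21 group, with replicate 2 again within the TBHP range.

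**Figure D3:**
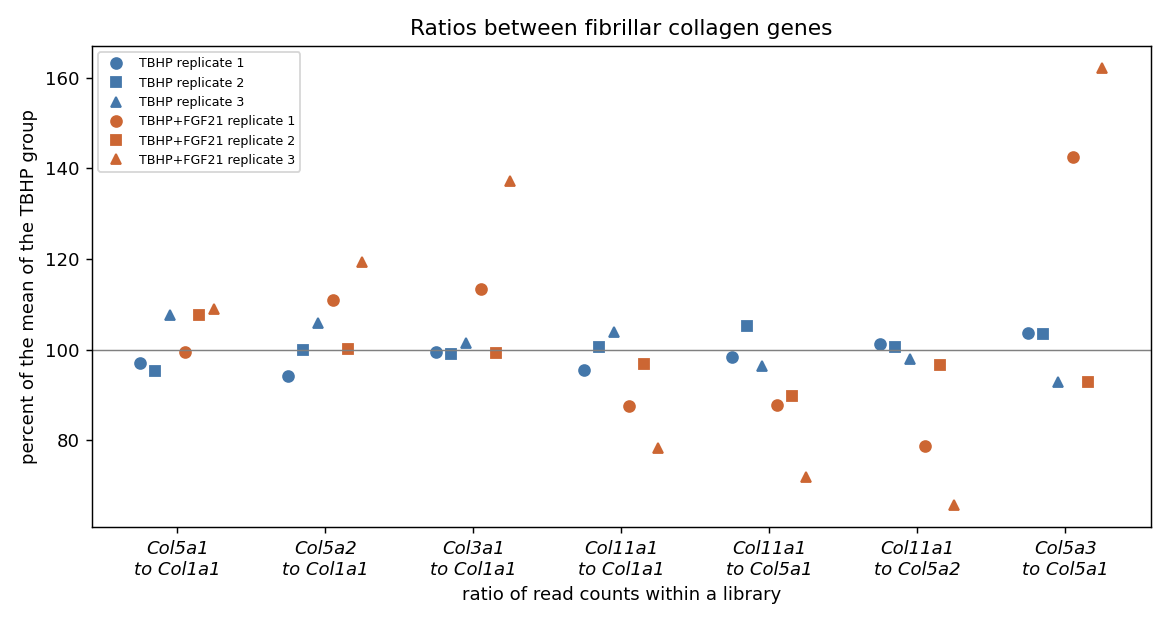
Ratios between fibrillar collagen members in each library, as a percent of the TBHP mean of that ratio, with 1 point per library. The ratios of Col11a1 to Col5a1 and to Col5a2 are lower in every TBHP+FGF21 library than in every TBHP library, and the ratio of Col5a3 to Col5a1 is higher in replicates 1 and 3 but not in replicate 2.

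The remaining fibrillar collagen genes outside the 9 were Col27a1 and Col24a1. Col27a1 had 264 to 406 counts and was at 13.8 ± 1.02 and 15.8 ± 2.38 CPM (log2 fold change 0.19, SE 0.14). Col24a1 had a single count, in replicate 3 of the TBHP+FGF21 group, and was not tested.

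Genes whose products act on fibrillar collagens were read from 8 lists of 83 genes in all, of which 67 were tested. At an unadjusted p under 0.05 there were 11, or 16.4% of those tested against 8.92% of all genes, and 0 passed the adjusted threshold in any list. The lists were chosen with earlier results of these data known, so these shares are no test of an excess. The 11 became 23 without replicate 2 of TBHP+FGF21, 7 without its replicate 1 and 3 without its replicate 3. Without replicates 1, 2 and 3 of TBHP they became 5, 2 and 12. Over all genes, 1019 became 2732, 479, 341, 510, 337 and 1771 in the same fits. Of the 18 tested genes for chain folding and hydroxylation, 9 were higher and 9 lower. Plod2, whose product hydroxylates lysines in collagen telopeptides, was at 761 ± 29.6 and 600.2 ± 116 CPM without overlap (log2 fold change -0.34, SE 0.13). Plod1, whose product hydroxylates lysines of the helix, differed in the other direction, at 417 ± 30.3 and 498 ± 64.3 CPM (log2 fold change 0.25, SE 0.11). Its groups overlapped, since replicate 2 of TBHP+FGF21 lay inside the TBHP range. Fkbp14, for a prolyl isomerase, was at a log2 fold change of -0.27, and Colgalt2, for a collagen galactosyltransferase, at 1.68 on 1 to 12 counts. Adjusted p was 0.553 by edgeR for each of these 4.

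None of the 9 secretion genes or of the 5 tested propeptide cleavage genes had an unadjusted p under 0.05, and the smallest p belonged to Sar1b (log2 fold change -0.14) and Adamts2 (log2 fold change -0.14). Among the 5 cross-linking enzymes, Loxl1 was at 97.2, 76.7 and 88.3 CPM under TBHP and 126.8, 88.5 and 147.4 CPM under TBHP+FGF21 (log2 fold change 0.47, unadjusted p 0.0126 by edgeR). In this list 2 genes were higher and 3 lower, among them Loxl2 (log2 fold change -0.48, unadjusted p 0.0622 by edgeR) and Lox (log2 fold change -0.27, unadjusted p 0.0598 by edgeR), both named after their values were seen. Without replicate 2 of TBHP+FGF21, Loxl1 was at 0.66 and Loxl2 at -0.86, with adjusted p of 0.00184 and 0.00115 by edgeR. In that fit 7.50% of 11559 genes had an adjusted p under 0.05. The library left out lay inside the TBHP range in both genes, so its removal enlarged both differences by construction. Of 10 fibril-associated partners tested, Col14a1, a collagen of the fibril surface, was at 24.9 ± 1.68 and 36.0 ± 10.7 CPM (log2 fold change 0.53). Of 8 receptors, Ddr2, a tyrosine kinase receptor for fibrillar collagen, was at 112 ± 12.6 and 137 ± 21.4 CPM (log2 fold change 0.29). Of 4 collagenases tested, Mmp13 was at 15.8 ± 0.620 and 23.4 ± 8.64 CPM (log2 fold change 0.56) and Mmp2, a gelatinase, at 295 ± 25.9 and 389 ± 105 CPM (log2 fold change 0.40). In Loxl1, Col14a1, Ddr2, Mmp13 and Mmp2, replicate 2 of the TBHP+FGF21 group had the lowest level of its group. Of 8 transcription regulators, Sox9 and Sox5 are given above with Col2a1.

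**Figure D4:**
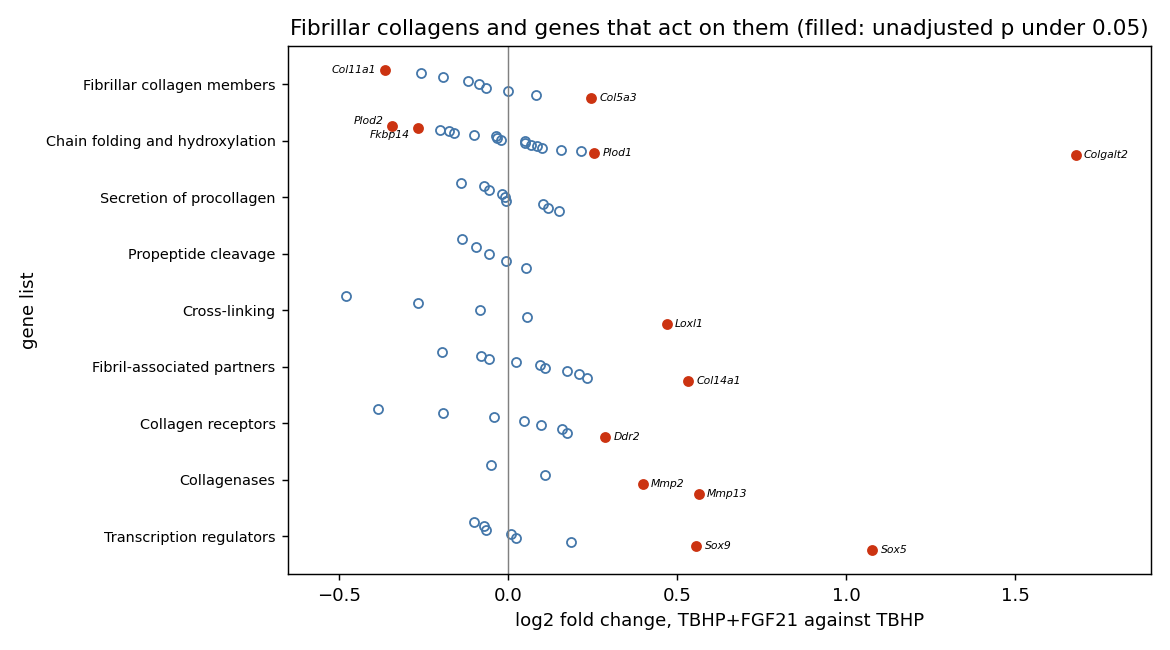
Log2 fold change, TBHP+FGF21 against TBHP, of the tested genes of each list, with 1 point per gene, filled where the unadjusted p is under 0.05. Col11a1 and Col5a3 lie on opposite sides of 0, as do Plod2 and Plod1, and no gene shown passes the adjusted threshold.

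Markers of other cells were read beside these values, and their part in them was not tested. The annulus fibrosus and fibroblast list had 7 tested genes and a summed level of 2140 to 2511 CPM under TBHP and 2054 to 2361 CPM under TBHP+FGF21. In this list Postn (log2 fold change -0.43) and Scx (log2 fold change -0.39) were lower and Pdgfra (log2 fold change 0.39) was higher at an unadjusted p under 0.05, and Tnmd had no count. Of the smooth muscle and pericyte list, 3 genes were tested, and the summed level was 2446 to 2680 CPM against 1963 to 2647 CPM. Acta2 was lower at a log2 fold change of -0.46, but its groups overlapped. Myh11 was at -0.02 and Cspg4 at 0.01. The chondrocyte-like list summed to 2612 to 3050 CPM against 2968 to 4465 CPM, most of it Acan, and Matn1 and Cnmd had no count. Of its 4 tested genes 3 were higher and 1, Comp, was lower, and Matn3, not tested, was lower without overlap. The notochordal list summed to 2515 to 2948 CPM against 2871 to 4361 CPM, again most of it Acan. The other 3 tested genes of this list were lower, Krt8 at a log2 fold change of -0.43 (unadjusted p 0.0516 by edgeR, groups not overlapping), Cd24 at -0.55 and Car3 at -0.34, and Foxa2, with 1 to 10 counts and not tested, was at 0.400 ± 0.105 and 0.109 ± 0.0744 CPM without overlap. The osteoblast list stayed between 12.4 and 21.7 CPM, with Alpl (log2 fold change 0.81) and Dmp1 (log2 fold change 0.89) higher at an unadjusted p under 0.05. The macrophage list summed to 1.54 to 2.51 CPM, with Ptprc and Adgre1 at 0 and Cd68 at 28 to 52 counts. The endothelial list was at 0.0474 to 0.527 CPM, with Cdh5 and Kdr at 0.

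Among the genes whose levels most resembled those of Col1a1 over the 6 libraries were Tnn (Pearson r 0.995), Hcn4, Mthfd2 and Tmem81 (0.989). Tnn encodes tenascin-N, an extracellular matrix protein of bone and tendon. For 88 of 11421 genes r was over 0.95, and with replicate 3 of TBHP+FGF21 left out, where Col1a1 was lowest, r was 0.952 for Tnn and 0.904 for Tmem81. For Col2a1, on 9 to 14 counts, the nearest genes were Chpf2 (r 0.985), Txnl4b, Rhbdl1, Vgll4 and Carmil1 (0.970). These correlations are descriptions over 6 libraries.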

How the data were processed

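RNA-seq read counts were analysed from 6 libraries of rat NPCs, 3 of the TBHP group and 3 of the TBHP+FGF21 group, grouped by title. The authors deposited whole read counts per Ensembl identifier for each library, unstranded and by strand, without normalization, and a combined table of raw counts per symbol. The combined table was handled as estimated counts because 22 rows that the authors deposited were not whole, and these were rounded up. The submitters' processing notes name STAR and featureCounts, and a genome build is not given in the sources used here. The rows of 14859 symbols equalled a row of the per-sample files, through which each member was linked to 1 identifier. Summed over genes, both strand columns were nearly equal (ratio 1.01 to 1.02). Unmapped reads (1.24% to 1.40%), multimapping reads, reads outside genes (9.13% to 10.4%) and ambiguous reads stayed out of library sizes. No library was a repeat of another (chi-square per gene 6.98 to 58.3 over pairs).

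The combined counts were fitted with edgeR 4.0.16 in R 4.3.3, using TMM, filterByExpr (minimum count 10, minimum total 15), condition only, glmQLFit, glmQLFTest and Benjamini-Hochberg adjustment. The SE was obtained from the log2 fold change and the F statistic as log2 fold change / sqrt(F). The fit was tested on simulated counts. The genes named were the 9 members, Col24a1 and Col27a1, the gene of each list with the smallest p, those with an unadjusted p under 0.05, Sox9, Sox5 and Sox6, and the 5 genes most correlated with Col1a1 and with Col2a1. Of the correlated genes, 1 is not reported here. Markers used to check the cells are named besides. Members and lists were chosen with earlier results of these data known. Alternatives were the per-sample counts, other scalings and filters, DESeq2 1.42.0, limma 3.58.1 (voom, and log2 with a pseudocount of 1), a replicate block, each library left out in turn, and replicate 1 alone of the TBHP+FGF21 group. Of the symbols, 96.2% are in RefSeq GRCr8, used for names, neighbours, gene spans and promoters.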

Additional observations from a re-analysis of the deposited data

How the results depend on the processing

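No member passed the adjusted threshold under any alternative that kept all libraries, where the smallest adjusted p was 0.187 by edgeR (Col11a1, replicate block). Col1a1, Col5a3 and Col11a1 kept their direction in every alternative, and of 158 member values 21 changed sign. Col2a1 kept its direction in the alternatives in which it was fitted. Neither Col2a1 nor Col1a2 passed the filter in the strand columns, where Col2a1 had 12, 5 and 9 counts under TBHP and 3, 5 and 5 under TBHP+FGF21 on one strand, and 2, 4 and 4 against 7, 10 and 5 on the other, in the opposite direction. Leaving out single libraries gave 0 to 2 members at an adjusted p under 0.05 (2 without replicate 2 of the TBHP+FGF21 group), 0 to 4 at an unadjusted p, 1 to 4 with groups that did not overlap and 2 to 23 list genes at an unadjusted p. The 2 members at an unadjusted p became 1 with the per-sample counts (unstranded or either strand), TMM without the members or limma-voom, and 0 with limma on log2 values.

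Over all genes, the 1 call became 0 with the per-sample counts (unstranded or either strand), limma-voom and limma on log2 values, where 664 had an unadjusted p under 0.05 in the last, 4 with DESeq2, 5 without a filter, 2 with the replicate block and 325 with replicate 1 alone of the TBHP+FGF21 group. Unadjusted calls numbered 1599 with the block and 1669 with replicate 1 alone, a library assumed to vary like the others. Leaving out single libraries gave 0 to 867 adjusted and 337 to 2732 unadjusted calls. The deviations of same-numbered libraries correlated with r of -0.12, 0.21 and 0.15. Since 1 of the 3 pairs was below 0.1, and not every library correlated best with its own number, the numbers were not treated as pairs, and a shared batch was not tested. With the replicate block Col11a1 was at -0.40 and Col5a3 at 0.24.

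Changes of sign were of low counts or small values. Col3a1 was at 0.0035 with per-sample unstranded counts, with DESeq2 size factors and with the DESeq2 test, 0.013 with strand column 3, 0.0114 with limma on log2 values, 0.0112 without a filter, 0.0216 without TMM, 0.0028 with TMM without the members and 0.067 with replicate 1 alone. With replicate 1 alone Col1a2 was at -0.36 and Col5a2 at 0.0393. Leaving out single libraries gave -0.0807 to 0.43 for Col1a2, -0.0237 to 0.0475 for Col3a1, -0.24 to 0.0084 for Col5a1, -0.11 to 0.0305 for Col5a2 and -0.51 to 0.22 for Col11a2. The cause of these changes was not tested. Depth limits Col1a2 and Col2a1, at under 20 counts per library, to errors of 0.40 and 0.39 on the log2 scale.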
